A study of Homo sapiens with 12 samples.

Results

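The CC chemokines examined here were CCL1, CCL2, CCL3, CCL4, CCL5, CCL7, CCL17, CCL20, CCL22 and CCL23, 10 of the 58288 genes in the deposited count table. They were taken by gene symbol, each symbol matching 1 row, with no threshold on a measured value. Total RNA had been sequenced from HL-60/S4, a human promyelocytic leukemia cell line, in 12 libraries that formed 4 groups of 3. Promyelocytes (undifferentiated cells, no ATRA) and granulocytes (the same line after 4 days in 1 µM all-trans retinoic acid, ATRA) were each given vehicle (water) or TNF-α at 16 ng/mL for 2 hr, all at passage 8. The 3 libraries of a group came from separate flasks of this 1 line, so the p-values measure the spread between flasks. Promyelocytes and granulocytes were handled as separate experiments, so for a difference in level between them cell type and experiment cannot be told apart.

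Chemokines are small secreted proteins that guide leukocytes along a gradient, and the CC family is named for the adjacent pair of cysteines near the start of the mature protein. Each CC chemokine binds one or more G protein-coupled receptors of the CCR family on the target cell, and most inflammatory members share receptors. TNF-α acts through its receptors on NF-κB, a family of transcription factors held in the cytoplasm by inhibitor proteins, and many CC chemokine genes are known NF-κB targets. Neutrophils and their precursors can make several of these proteins and thereby draw monocytes, T cells and dendritic cells to a site of inflammation.

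Most of the genes lie in 2 clusters of chromosome 17 (hg38). CCL2 (ENSG00000108691.9, chr17:34255218-34257203, plus strand) was followed after 13.02 kb by CCL7 (ENSG00000108688.11, chr17:34270221-34272242, plus strand), and CCL1 (ENSG00000108702.3, chr17:34360328-34363231, minus strand) lay at the far end of that cluster. The second cluster held CCL5 (ENSG00000271503.5, chr17:35871491-35880793, minus strand), CCL23 (ENSG00000274736.4, chr17:36013056-36017968, minus strand), CCL3 (ENSG00000277632.1, chr17:36088256-36090169, minus strand) and CCL4 (ENSG00000275302.1, chr17:36103590-36105621, plus strand). CCL3 and CCL4 were 13.4 kb apart on opposite strands. CCL22 (ENSG00000102962.4, chr16:57358772-57366190, plus strand) and CCL17 (ENSG00000102970.10, chr16:57404767-57416062, plus strand) were neighbours on chromosome 16 with 38.6 kb between them, and CCL20 (ENSG00000115009.11, chr2:227813842-227817564, plus strand) stood alone on chromosome 2. These spans cover the whole gene, and reads on its exons, untranslated ends included, were counted together.

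Promoter sequences were available from RefSeq (GRCh38.p14) for 6 of the 10 genes, in 8 entries of which 3 were for CCL3. The 250 bases before each RefSeq start were searched on both strands for the NF-κB consensus and for the AP-1 consensus TGANTCA. The NF-κB consensus was found in 3 of the 6 genes (CCL1, CCL20 and CCL22), or 3 of the 8 entries. In the same window it was found in 9.96% of all 35116 promoter entries, which belonged to 27305 genes. The share per gene was not computed. AP-1 was found in 1 gene (CCL7), or 1 of the 8 entries, and in 6.57% of all promoter entries. None of the windows of CCL3 or CCL23 held either consensus, which says only that these letters are not in those bases. A match describes the sequence and is not evidence of binding. The 3 promoters with an NF-κB match are shown because their genes rose with TNF-α in at least one cell type, with the matched bases in capitals and each sequence running 5′ to 3′ on the strand of its gene.
CCL1, chr17:34363234-34363483, minus strand, match 200 to 190 bases before the start: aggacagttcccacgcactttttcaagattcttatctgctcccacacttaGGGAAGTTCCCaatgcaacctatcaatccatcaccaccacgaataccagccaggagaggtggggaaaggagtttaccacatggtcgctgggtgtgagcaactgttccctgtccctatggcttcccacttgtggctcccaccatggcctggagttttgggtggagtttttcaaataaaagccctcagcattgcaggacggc
CCL20, chr2:227813592-227813841, plus strand, match 79 to 70 bases before the start: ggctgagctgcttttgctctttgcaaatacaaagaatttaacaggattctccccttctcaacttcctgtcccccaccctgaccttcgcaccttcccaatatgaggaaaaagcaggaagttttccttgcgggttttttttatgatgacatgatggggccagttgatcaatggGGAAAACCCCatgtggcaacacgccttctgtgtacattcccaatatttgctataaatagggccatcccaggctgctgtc
CCL22, chr16:57358533-57358782, plus strand, overlapping matches 186 to 176 bases before the start: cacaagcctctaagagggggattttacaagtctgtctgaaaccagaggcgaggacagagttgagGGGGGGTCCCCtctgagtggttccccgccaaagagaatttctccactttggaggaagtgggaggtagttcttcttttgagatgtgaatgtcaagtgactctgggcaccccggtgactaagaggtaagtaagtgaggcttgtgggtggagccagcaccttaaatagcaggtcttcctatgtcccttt
In CCL20 the consensus read on the opposite strand, and in CCL1 and CCL22 it was found on both strands at overlapping positions.

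Library totals ranged from 22829189 to 31895061 read pairs on genes, of which mitochondrial transcripts took 5.67 to 6.97%. At these depths 3 counts, taken as the limit of detection, correspond to 0.0945 to 0.136 CPM, the count scaled to a common library size. Promyelocyte granule genes summed to 7316 to 8142 CPM in vehicle-treated promyelocytes and 2132 to 2344 CPM in vehicle-treated granulocytes, while granulocyte genes summed to 161 to 169 and 3625 to 3802 CPM. NCF1 and CYBB, at 1217 and 2106 CPM by mean, made up most of the sum of granulocyte genes in vehicle-treated granulocytes. MMP9 was lower there than in vehicle-treated promyelocytes, at 1.60 against 2.45 CPM. Among the granulocyte genes, CEACAM8 and LTF, proteins of the specific granules of mature neutrophils, had at most 8 and 1 counts in any library. Genes of monocytes and macrophages summed to 4.60 to 5.07 CPM in vehicle-treated promyelocytes and 100.3 to 103.5 CPM in vehicle-treated granulocytes, where CD14, CD163, MRC1 and MARCO had at most 12 counts in any library and CSF1R and VSIG4 made up most of the sum. With TNF-α the granulocyte sum of this list was 68.2 to 75.1 CPM, below vehicle. The granulocyte genes summed to 274 to 287 CPM in promyelocytes and 4248 to 4546 CPM in granulocytes with TNF-α, above vehicle. Of these genes 3 rose and 2 fell in promyelocytes, and 3 rose and 3 fell in granulocytes. Promyelocyte granule genes with TNF-α summed to 6062 to 6962 CPM in promyelocytes, below vehicle, and 2144 to 2351 CPM in granulocytes. Dendritic cell genes summed to at most 0.522 CPM in promyelocytes and 13.4 to 15.4 CPM in granulocytes, T cell genes to at most 4.06 CPM and B cell genes to at most 11.2 CPM in any library. Whether other cell types contributed to chemokine levels was not tested, and in bulk RNA fewer cells of a type and less RNA per cell cannot be told apart.

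TNF-α raised most of the 10 CC chemokine transcripts examined in both cell types. The 10 were chosen with earlier results of these data known, so their share does not describe the CC family. Of 16 other CC ligands, 2 rose in promyelocytes and 3 in granulocytes, and 13 were not tested in either. In promyelocytes 6 of the 10 rose (CCL1, CCL2, CCL3, CCL4, CCL5 and CCL20), against 8.15% of all 16250 genes tested. In granulocytes 7 rose, the same 6 and CCL22, against 24.4% of all 16944 genes tested. None of the 10 fell in either cell type, where 6.65% and 24.8% of all genes tested did. CCL7 and CCL17 were too low to be tested in either. The median log2 fold change of the 8 tested was 3.36 in promyelocytes and 2.81 in granulocytes, while over all genes tested it was -0.00940 and -0.00470. For each gene that rose, the lowest TNF-α library exceeded the highest vehicle library. Every called gene of the other lists examined here was separated in the same way, so this is not particular to the CC chemokines. The share of all genes tested with such separation was not computed.

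**Figure D1:**
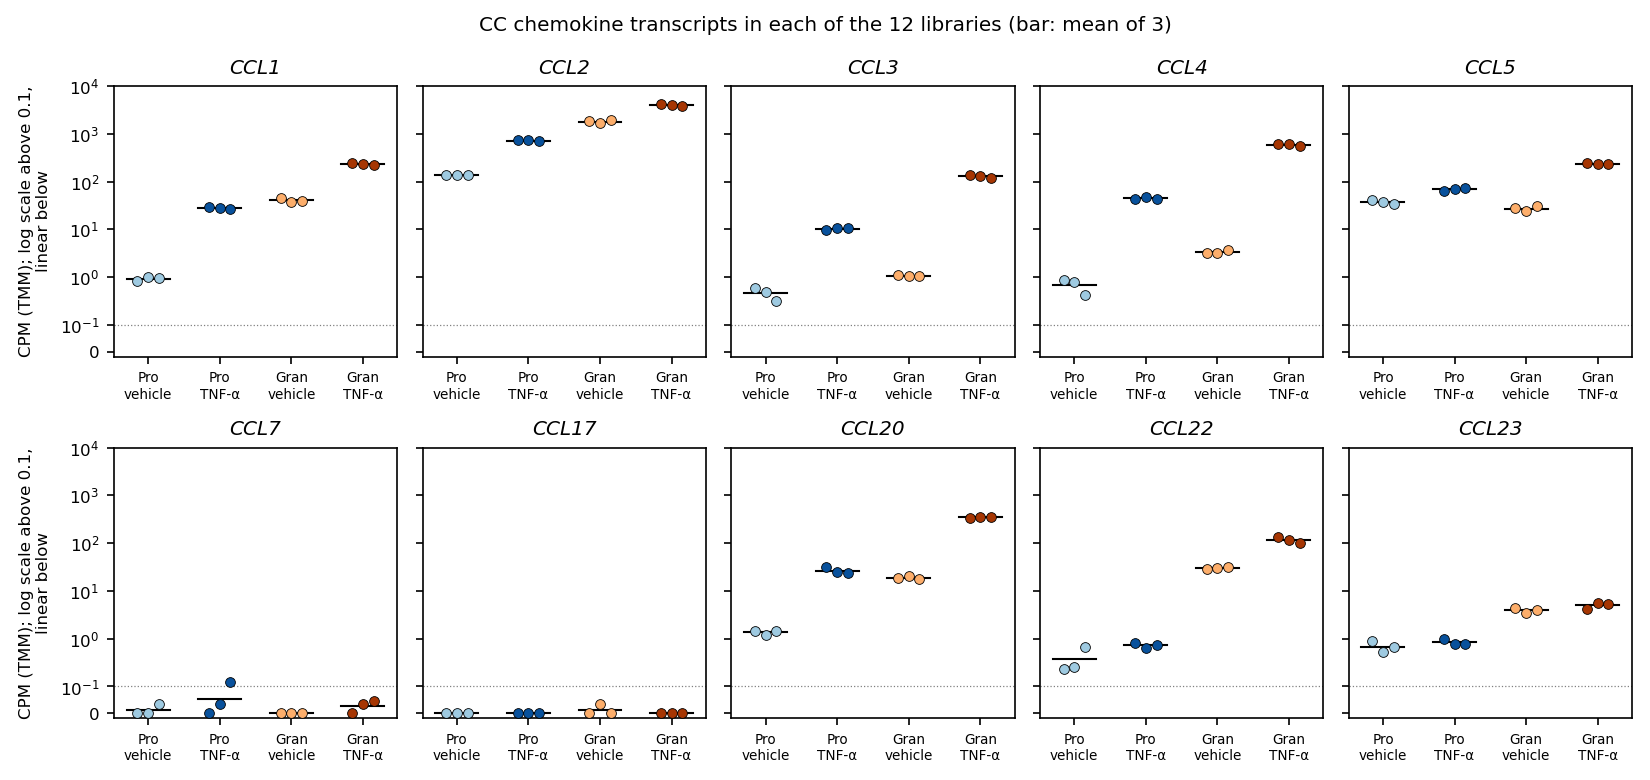
Normalized level (CPM, TMM library sizes) of each CC chemokine in the 12 libraries, on an axis that is logarithmic above 0.1 CPM (dotted line) and linear below. Points are libraries and bars are means of 3 per group; CCL2 was the highest in every group, and CCL7 and CCL17 stayed at or near 0.

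CCL2, the principal attractant of monocytes through CCR2, was the most abundant CC chemokine in all 4 groups. Its counts in vehicle-treated promyelocytes were 4245, 3782 and 3961, and with TNF-α they were 19312, 20422 and 22501. Granulocytes had 47302, 50883 and 56802 counts with vehicle and 91629, 109332 and 84665 with TNF-α. No 2 groups overlapped, and vehicle-treated granulocytes already exceeded TNF-α-treated promyelocytes, at 1802 ± 111 CPM against 721 ± 11.1 CPM (mean ± SD, n = 3). The TNF-α response was 5.31-fold in promyelocytes (log2 fold change 2.41, SE 0.0570, adjusted p = 3.7e-17, edgeR quasi-likelihood test) and 2.18-fold in granulocytes (1.12, SE 0.0563, adjusted p = 3.56e-19). The larger fold went with the smaller rise in level: CCL2 gained 583 CPM (SE 6.44) in promyelocytes and 2158 CPM (SE 113) in granulocytes.

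CCL7, a second monocyte attractant that binds several CC receptors, lies next to CCL2 but had 0 to 4 counts per library. Its counts with TNF-α were 0, 1 and 4 in promyelocytes and 0, 1 and 1 in granulocytes, and with vehicle a single count was seen in 1 of the 6 libraries. Over the 12 libraries CCL7 collected 8 counts where its neighbour CCL2 collected 514836. Both groups were at or near the limit of detection, so no fold is given.

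CCL3 and CCL4, closely related inflammatory chemokines that attract monocytes and T cells, had the largest log2 fold changes of the 8 members tested in granulocytes, and CCL4 also in promyelocytes. CCL3 counts in promyelocytes were 18, 13 and 9 with vehicle and 262, 295 and 344 with TNF-α. In granulocytes they were 29, 32 and 32 with vehicle and 3024, 3739 and 2651 with TNF-α. The groups were far apart in both cell types, with a 22.8-fold rise in promyelocytes (log2 fold change 4.51, SE 0.193, adjusted p = 6.37e-13) and a 119-fold rise in granulocytes (6.89, SE 0.0940, adjusted p = 3.47e-37). CCL4 had 27, 22 and 12 counts in vehicle-treated promyelocytes and 1138, 1336 and 1391 after TNF-α. Vehicle-treated granulocytes had 85, 97 and 111, and TNF-α-treated granulocytes 13519, 16759 and 12477. This was a 64.4-fold rise in promyelocytes (6.01, SE 0.141, adjusted p = 3.6e-17) and a 172-fold rise in granulocytes (7.42, SE 0.0755, adjusted p = 1.06e-40). Among all genes tested CCL4 was exceeded in log2 fold change by 8 genes in promyelocytes and by 16 in granulocytes. Per unit length, CCL4 stood at 1.11 ± 0.132 times CCL3 in vehicle-treated promyelocytes, 3.17 ± 0.180 times with TNF-α, 2.31 ± 0.210 times in vehicle-treated granulocytes and 3.35 ± 0.0978 times with TNF-α (ratio of length-scaled levels, TPM, mean ± SD, n = 3).

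Each of these 2 genes has a near-identical copy in the same cluster, CCL3L3 for CCL3 and CCL4L2 for CCL4, and the counting assigned a read pair that matched both to one of them. The division between a gene and its copy is therefore uncertain, and so is the ratio of CCL4 to CCL3 above, which leaves the copies out. In vehicle-treated promyelocytes that ratio also rests on 9 to 18 counts of CCL3 and 12 to 27 of CCL4. CCL3L3 rose from 4 to 11 counts to 40 to 68 in promyelocytes and from 9 to 14 counts to 268 to 374 in granulocytes, and CCL4L2 rose from 4 to 7 counts to 121 to 171 and from 29 to 38 counts to 3216 to 4495. After TNF-α, CCL4L2 held 9.61 to 11.3% of the pair's counts in promyelocytes and 20.1 to 21.1% in granulocytes. With the rows of each pair summed, an alternative chosen after the counts were seen, the log2 fold changes were 4.06 and 6.61 for CCL3 with its copy and 5.85 and 7.33 for CCL4 with its copy, in promyelocytes and granulocytes respectively.

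CCL5, a ligand of CCR1 and CCR3 known from T cells and platelets, was the only member whose vehicle level was lower in granulocytes than in promyelocytes among the 8 tested. Promyelocytes had 1265, 1015 and 1002 counts with vehicle and 1725, 1947 and 2291 with TNF-α. Granulocytes had 724, 717 and 905 counts with vehicle and 5422, 6592 and 5045 with TNF-α. The normalized levels followed the order TNF-α-treated granulocytes (236 ± 8.50 CPM), TNF-α-treated promyelocytes (68.9 ± 3.69), vehicle-treated promyelocytes (37.7 ± 3.39) and vehicle-treated granulocytes (27.3 ± 3.34), with no overlap between neighbours. CCL5 had the smallest log2 fold change of the 6 genes that rose in promyelocytes, 1.86-fold (0.89, SE 0.0686, adjusted p = 6.24e-09), and rose 8.58-fold in granulocytes (3.10, SE 0.0629, adjusted p = 1.13e-31).

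CCL20, which recruits dendritic cells and lymphocytes through CCR6, rose by nearly the same factor in both cell types. Its counts went from 44, 32 and 42 with vehicle to 827, 702 and 758 with TNF-α in promyelocytes. The corresponding counts in granulocytes were 472, 618 and 519, and 7355, 9642 and 7868. All TNF-α libraries were above all vehicle libraries of their cell type. The rise was 19.9-fold in promyelocytes (log2 fold change 4.31, SE 0.141, adjusted p = 7.77e-15) and 18.2-fold in granulocytes (4.19, SE 0.0618, adjusted p = 3.75e-36). The level was 13.8 times as high in granulocytes as in promyelocytes with vehicle and 12.9 times as high with TNF-α (ratios of mean CPM).

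CCL1, a ligand of CCR8 that attracts subsets of T cells, rose in both cell types and by the larger factor in promyelocytes. Promyelocyte counts with vehicle were 25, 27 and 28, and with TNF-α 778, 788 and 837. In granulocytes CCL1 had 1185, 1126 and 1164 counts with vehicle and 5315, 6595 and 4977 with TNF-α, so that vehicle-treated granulocytes (40.6 ± 4.39 CPM) lay above TNF-α-treated promyelocytes (27.9 ± 1.46 CPM). The fold was 30.6 in promyelocytes (log2 fold change 4.94, SE 0.128, adjusted p = 1.72e-16) and 5.71 in granulocytes (2.51, SE 0.0587, adjusted p = 9.04e-30).

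CCL22 and CCL17 are the ligands of CCR4 and attract helper and regulatory T cells. CCL22 had 7, 7 and 19 counts in vehicle-treated promyelocytes and 22, 18 and 23 with TNF-α, and the groups overlapped. The log2 fold change of 0.96 (SE 0.428) did not pass the test in promyelocytes (adjusted p = 0.153). Without vehicle replicate 3, the library with 19 counts, it was 1.61 with adjusted p = 0.0326. It was 0.67 (adjusted p = 0.427) without vehicle replicate 1 and 0.75 (adjusted p = 0.399) without vehicle replicate 2. With DESeq2 it was 0.97 (adjusted p = 0.299). Granulocytes had 757, 916 and 941 counts with vehicle and 2909, 3224 and 2208 with TNF-α, and every TNF-α library was above every vehicle library. This was a 3.77-fold rise (1.91, SE 0.0682, adjusted p = 7.62e-24). The vehicle level of CCL22 was 79.7 times as high in granulocytes as in promyelocytes, the widest such ratio among the 8 genes tested. The promyelocyte level rests on 7, 7 and 19 counts. The ratio was 66.4 without promyelocyte vehicle replicate 1, 68.6 without replicate 2 and 125 without replicate 3. CCL17 collected 1 count in the 12 libraries, in a vehicle-treated granulocyte library, where CCL22 collected 11051, and no fold is given for it.

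CCL23, a ligand of CCR1 that attracts monocytes and resting T cells, was low in promyelocytes and did not pass the test in either cell type. Counts in promyelocytes were 27, 14 and 19 with vehicle and 26, 22 and 25 with TNF-α (log2 fold change 0.33, SE 0.333, adjusted p = 0.582). Granulocytes had 114, 102 and 117 counts with vehicle and 91, 158 and 116 with TNF-α (0.36, SE 0.156, adjusted p = 0.0534). The groups overlapped in both, and the 95% interval of the fold ran from 0.797 to 1.97 in promyelocytes and from 1.04 to 1.59 in granulocytes. The granulocyte value lay near the threshold: the adjusted p was 0.0393 without vehicle replicate 1, 0.0102 without TNF-α replicate 1 and 0.0496 with DESeq2 size factors, and 0.227 with library totals in place of TMM sizes.

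**Figure D2:**
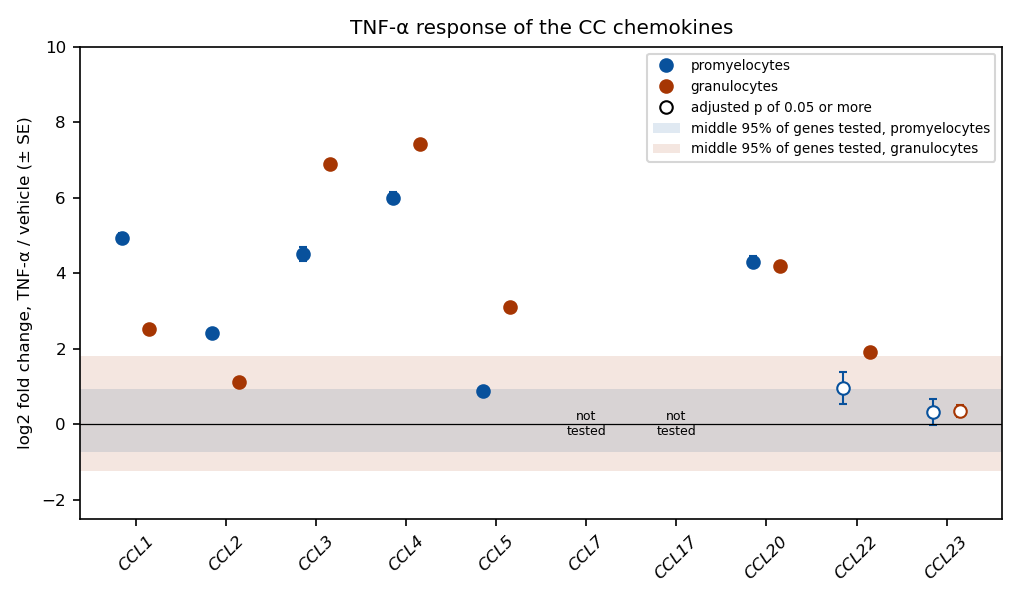
Log2 fold change (TNF-α over vehicle, ± SE from the edgeR fit of 6 libraries) of each CC chemokine in promyelocytes and granulocytes; open points did not pass an adjusted p of 0.05, and shaded bands span the middle 95% of all genes tested in each cell type. CCL1 and CCL2 sit higher in promyelocytes, CCL3, CCL4 and CCL5 higher in granulocytes, and the points of CCL20 lie close together.

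The responses of the 2 cell types were compared by an interaction test in a fit of all 12 libraries (granulocyte minus promyelocyte log2 fold change), in which 24% of the 18124 genes tested differed in either direction. Of the 10 members, 5 differed between the cell types, against 14.1% of all genes tested with a larger and 9.88% with a smaller response in granulocytes. CCL1 and CCL2 responded less in granulocytes, by a log2 difference of -2.39 (SE 0.156, adjusted p = 6.53e-12) and -1.25 (SE 0.0775, adjusted p = 2.5e-12). CCL3, CCL4 and CCL5 responded more in granulocytes, by 2.42 (SE 0.295, adjusted p = 5.41e-07), 1.45 (SE 0.232, adjusted p = 3.06e-05) and 2.25 (SE 0.104, adjusted p = 7.82e-15). CCL20 did not differ beyond its error, with a log2 difference of -0.08 (SE 0.167, adjusted p = 0.776), and the 95% interval of the ratio of its 2 fold changes was 0.752 to 1.19. CCL23 gave 0.08 (SE 0.340, adjusted p = 0.909). CCL22 gave 1.00 (SE 0.395, adjusted p = 0.0688), a value that ranged from 0.35 without promyelocyte vehicle replicate 3 to 1.28 without promyelocyte vehicle replicate 1, where adjusted p was 0.0353, and adjusted p was 0.0280 without granulocyte TNF-α replicate 3. On the linear scale the increase was larger in granulocytes for all 6 genes that rose in both: the granulocyte gain in CPM was 3.70 times the promyelocyte gain for CCL2, 6.72 times for CCL5, 7.15 times for CCL1, 12.9 times for CCL20, 12.97 times for CCL3 and 13.3 times for CCL4. These ratios are descriptions, since the cell types were separate experiments.

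The make-up of the 10 CC chemokines was compared per unit length, as TPM. TPM uses no TMM sizes, so its changes can differ from the tested folds. Shares are of the summed TPM of the 10 genes only. Left out of it was CCL24, at 699 ± 10.4 TPM in vehicle-treated granulocytes and 687 ± 14.3 TPM with TNF-α. So was CCL4L2, at 2.73 ± 0.185 TPM in vehicle-treated granulocytes and 302 ± 8.38 TPM with TNF-α. With both counted, the CCL2 share in granulocytes would be lower. The 10 genes summed to 285 ± 7.76 TPM in vehicle-treated promyelocytes and 1512 ± 91.7 TPM with TNF-α, and to 3369 ± 140 TPM in vehicle-treated granulocytes and 8886 ± 224 TPM with TNF-α (mean ± SD, n = 3). CCL2 supplied 70.4 ± 1.59% of the sum in vehicle-treated promyelocytes and 71.7 ± 0.0952% with TNF-α, so its share there hardly moved. In granulocytes it supplied 88.4 ± 0.634% with vehicle and 61.8 ± 0.536% with TNF-α. CCL5 was the second contributor in vehicle-treated promyelocytes, with 25.2 ± 1.54%, and held 9.0 ± 0.597% after TNF-α. CCL1 went from 1.59 ± 0.198 to 9.31 ± 0.363% in promyelocytes and from 6.69 ± 0.637 to 12.2 ± 0.146% in granulocytes, where CCL4 went from 0.163 ± 0.00809 to 9.02 ± 0.149% and CCL20 from 1.36 ± 0.201 to 7.96 ± 0.541%. In granulocytes with TNF-α, CCL2 had the rank 20 by TPM among 27615 genes with any reads, CCL1 the rank 83, CCL4 113, CCL20 127, CCL5 219 and CCL3 403. The same 6 genes held the ranks 28, 468, 11994, 3333, 2395 and 14668 with vehicle.

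**Figure D3:**
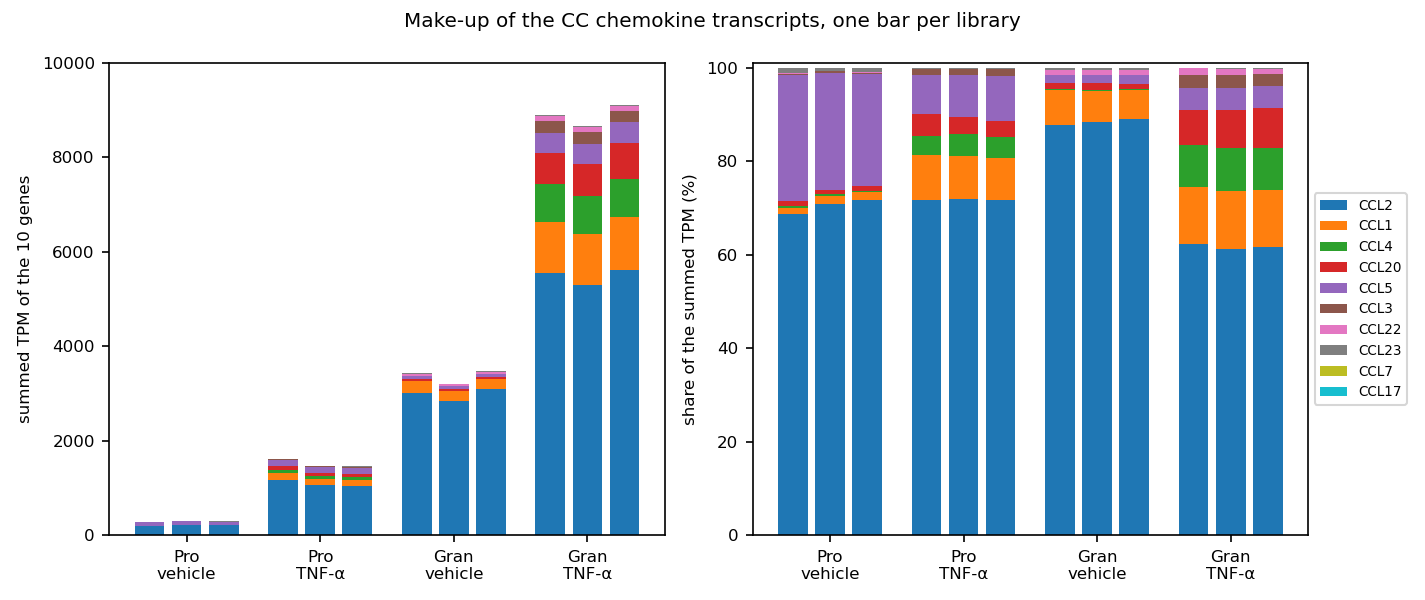
Summed TPM of the 10 CC chemokines (left, linear axis from 0) and each gene's share of that sum (right, percent), 1 bar per library. The sum rises from 285 TPM in vehicle-treated promyelocytes to 8886 TPM in TNF-α-treated granulocytes, and CCL2 takes 61.8 to 88.4% of it by group mean.

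Among other CC ligands, 16 had a row in the table, and 3 of them passed the count filter in each cell type. CCL3L3 and CCL4L2, the copies described above, rose in both (log2 fold change 2.68 and 4.92 in promyelocytes, 5.13 and 7.03 in granulocytes). CCL24, an attractant of eosinophils through CCR3, had 3469, 3845 and 3973 counts in vehicle-treated granulocytes and 3441, 4469 and 3239 with TNF-α, but 9 to 16 in promyelocytes. It passed the test in granulocytes with a 1.16-fold rise (0.22, SE 0.0492, adjusted p = 0.000354), a call that was lost with library totals in place of TMM sizes (0.09, adjusted p = 0.138). As TPM, which uses no TMM sizes, the granulocyte mean of CCL24 did not rise (699 with vehicle and 687 with TNF-α). In promyelocytes it did not pass (0.34, SE 0.410, adjusted p = 0.649). CCL8, a monocyte attractant of the CCL2 cluster, had 0 counts in all 6 vehicle libraries. With TNF-α it had 1, 3 and 1 counts in promyelocytes and 11, 7 and 5 in granulocytes. The granulocyte mean with TNF-α was 3.09 times the level of 3 counts per vehicle library. This sets a bound on the vehicle level only, and the mean itself rests on 5 to 11 counts per library. CCL25 had 2, 11 and 3 counts in vehicle-treated granulocytes and 0, 3 and 1 with TNF-α, and CCL26 had 5, 0 and 7 and then 3, 11 and 9. Both had at most 1 count in any promyelocyte library, and neither was tested.

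The receptor transcripts that passed the test mostly fell, unlike the ligands. Of 13 CC chemokine receptors examined, 5 were tested in promyelocytes and 2 fell, and 5 were tested in granulocytes, of which 4 fell and 1 rose, where 6.65% of all genes tested fell in promyelocytes and 24.8% in granulocytes. The median log2 fold change over those tested was -0.42 in promyelocytes and -1.13 in granulocytes. CCR2, the receptor of CCL2, fell 4.23-fold in promyelocytes, from 23 to 32 counts to 6 or 7 (-2.08, SE 0.406, adjusted p = 0.0011), and 4.08-fold in granulocytes, from 87 to 113 counts to 18 to 22 (-2.03, SE 0.237, adjusted p = 3.93e-09). CCR3, an eosinophil receptor, fell 3.32-fold in granulocytes (-1.73, SE 0.0655, adjusted p = 5.43e-23), and ACKR2, a decoy receptor that takes up inflammatory CC chemokines, fell 2.19-fold there (-1.13, SE 0.115, adjusted p = 1.48e-10). CCR1, which binds CCL3, CCL5 and CCL23 and is named here after its values were seen, fell in both cell types, with log2 fold changes of -0.89 (SE 0.147, adjusted p = 0.000182) in promyelocytes and -0.37 (SE 0.0502, adjusted p = 1.1e-07) in granulocytes. CCRL2, an atypical receptor that does not signal migration, rose 1.93-fold in granulocytes (0.95, SE 0.103, adjusted p = 6.68e-10). Of the other receptors, also named after their values were seen, CCR6, which binds CCL20, had at most 12 counts in any library, and CCR4 and CCR8, which bind CCL22 and CCL1, had 0 in all 12.

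Genes of NF-κB and its inhibitors rose in both cell types, 9 of 11 in promyelocytes and 10 of 11 in granulocytes (9 with library totals in place of TMM sizes), and none fell. Of all genes tested 8.15% and 24.4% rose. NFKBIA, the inhibitor that is resynthesized after NF-κB activation, rose 15.04-fold in promyelocytes (log2 fold change 3.91, adjusted p = 1.75e-19) and 45.4-fold in granulocytes (5.51, adjusted p = 3.37e-39). TNFAIP3, a ubiquitin-editing inhibitor of the same pathway, rose 12.4-fold and 33.8-fold, BCL3, a nuclear relative of the inhibitors, 11.5-fold and 34.1-fold, and NFKB2, a subunit of the non-canonical branch, 14.4-fold and 29.2-fold. The genes that did not pass, and REL below, are named after their values were seen. NFKBIZ did not pass in either cell type, and RELA did not pass in promyelocytes (-0.03, SE 0.0689, adjusted p = 0.812). By the interaction test 9 of the 11 responded more in granulocytes and REL responded less (-0.31, SE 0.0760, adjusted p = 0.00356), where 14.1% of all genes tested responded more and 9.88% less. With DESeq2 size factors or library totals 9 of the 11 differed in all. The fold change of NFKBIA, for example, was 3.10 times as large in granulocytes, a direction shared by CCL3, CCL4 and CCL5 and not by CCL1 and CCL2.

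**Figure D4:**
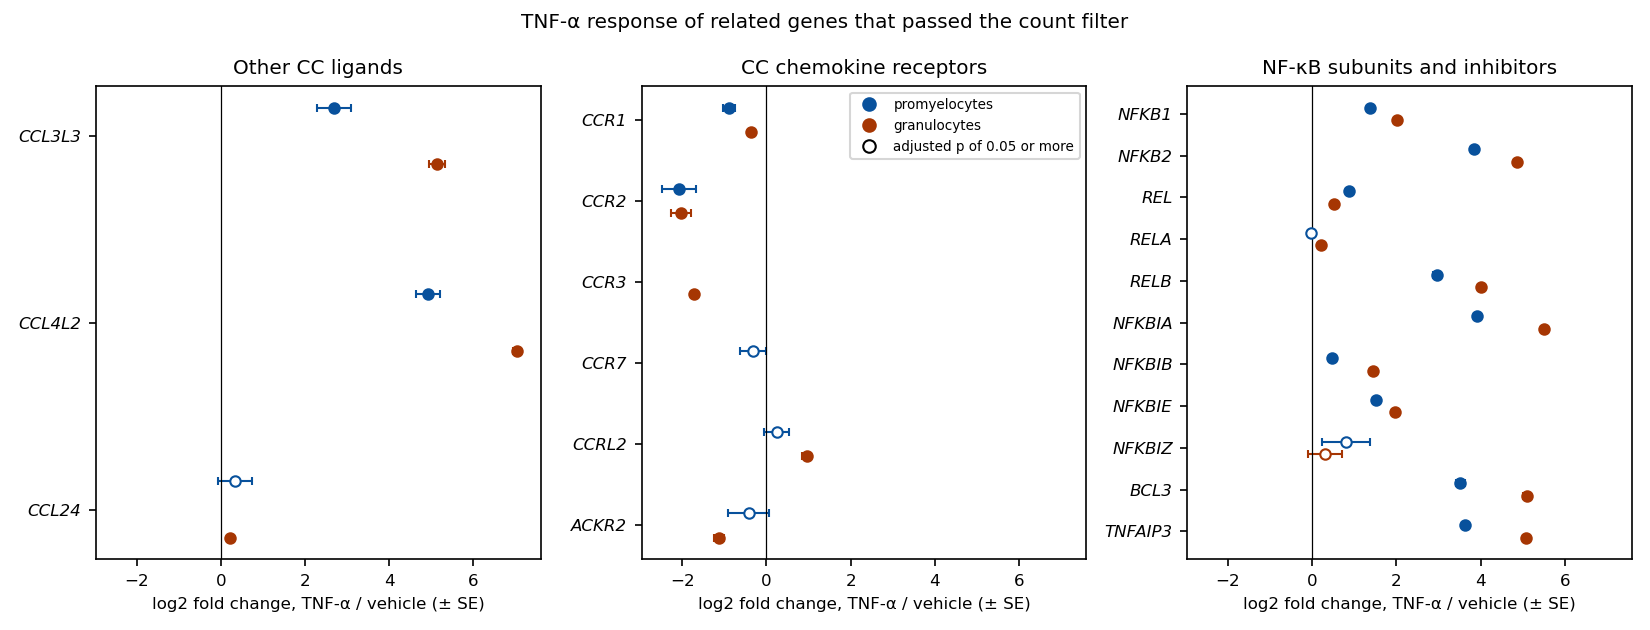
Log2 fold change (TNF-α over vehicle, ± SE) of the other CC ligands, the CC chemokine receptors and the NF-κB genes that passed the count filter, in promyelocytes and granulocytes; open points did not pass an adjusted p of 0.05. Receptors lie mostly left of 0, with CCR2 near -2 in both cell types, and the NF-κB genes lie mostly right of 0.

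The genes whose 4 group means were most like those of CCL2 and CCL5 were sought among the 18124 genes of the 12-library fit, by the root mean square difference of centred mean log2(CPM + 0.5) over the 4 groups. For CCL2 these were SNN (difference 0.22), MYEOV (0.24) and PRDM1 (0.24). SNN stood at 7.12, 26.5, 68.9 and 164 CPM in vehicle-treated promyelocytes, TNF-α-treated promyelocytes, vehicle-treated granulocytes and TNF-α-treated granulocytes, the same ascending order as CCL2. For CCL5, the member with the smallest interaction p, they were CLIC4 (0.16), IL4I1 (0.22) and RASGEF1B (0.23). CLIC4, a chloride intracellular channel protein, stood at 77.7, 154, 73.0 and 480 CPM in the same order of groups, with vehicle levels that were alike in the 2 cell types and a larger TNF-α level in granulocytes. IL4I1 and RASGEF1B were at most 5.2 and 2.78 CPM by group mean, so their likeness rests on few counts. MYEOV was at 0.204 ± 0.113 CPM in vehicle-treated promyelocytes, below the 0.5 added before the logarithm, so its likeness there also rests on few counts. With 4 group means per gene, likeness is a description.

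**Figure D5:**
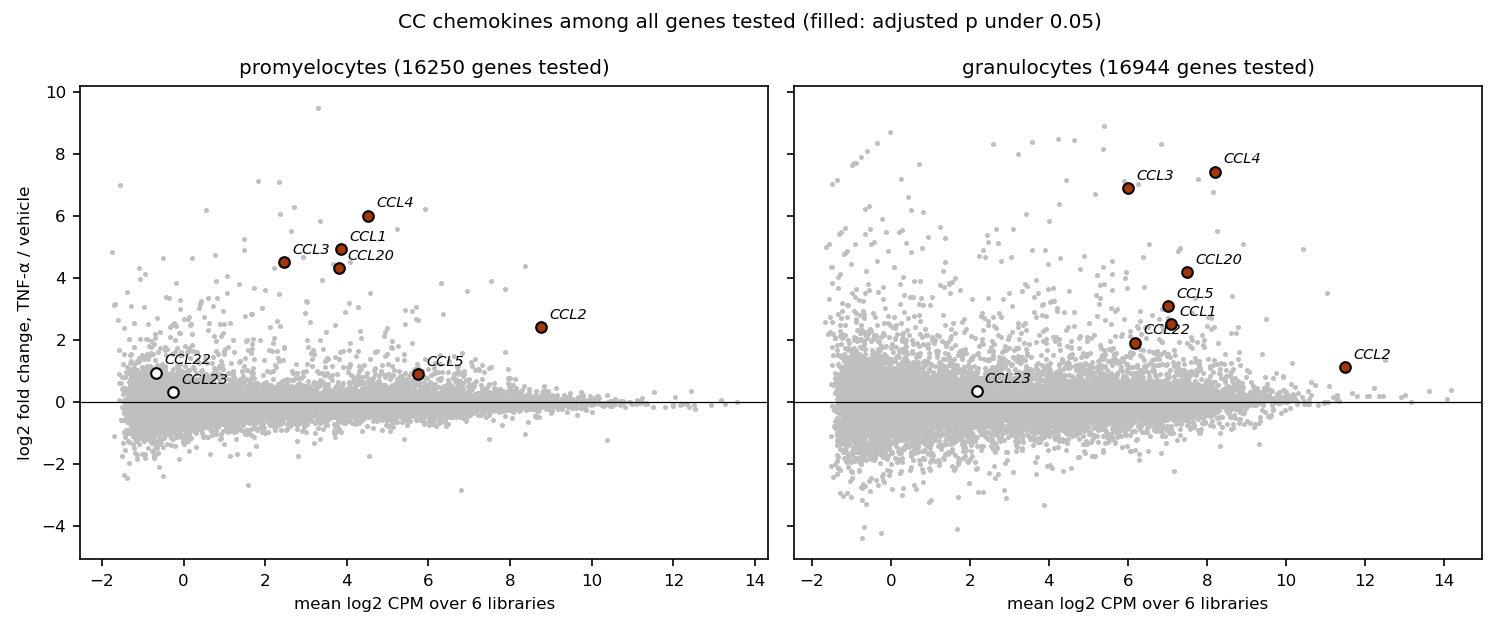
Log2 fold change (TNF-α over vehicle) against mean log2 CPM for every gene tested, promyelocytes left and granulocytes right, with the CC chemokines marked (filled where adjusted p was under 0.05). CCL4 lies among the strongest responders on both sides, and CCL2 combines a high level with a log2 fold change of 2.41 in promyelocytes and 1.12 in granulocytes.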

How the data were processed

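Total RNA of the 12 libraries was depleted of ribosomal RNA and sequenced from both ends. Per the paper and the file header, the authors aligned read pairs with STAR 2.5.3a to hg38 and deposited raw counts per gene, made with featureCounts 1.5.2 on GENCODE 27 (reverse strand, primary alignments, both ends mapped, no chimeras). Primary alignments of pairs that match several places were counted, so near-identical copies share reads. Totals of 22829189 to 31895061 read pairs and 3 libraries per group limit the precision. Floors of 3 counts cover counting error only.

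The 6 libraries of a cell type were fitted together in edgeR 4.0.16 (R 4.3.3) with TMM, filterByExpr (minimum count 10, minimum total 15), the quasi-likelihood test and Benjamini-Hochberg adjustment over all genes tested, threshold 0.05. The difference between responses was the interaction in a fit of 12 libraries. SEs were computed as the fitted change over the root of its F value, and 95% intervals are 1.96 SE on each side. CPM used TMM sizes of all 12 libraries, and TPM the merged exon length in the count table. Scripts were tested on simulated data. No replicate pair agreed within sampling noise (chi-square per gene 4.21 to 18.3).

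Symbols were matched by Ensembl identifier (57577 of 58288). Of the marker lists, summed levels are given, with counts of defining genes that were at or near 0. Other genes were named by rule: other CC ligands with at least 10 counts in any library, and from the receptor and NF-κB lists the 4 largest changes called in either cell type. Exceptions are pointed out. The receptor and monocyte lists each lack 1 gene that is not reported here. The members and lists were chosen with earlier results of these data known. Alternatives were DESeq2 1.42.0 and its size factors, no expression filter, a prior count of 2, a replicate block, all 12 libraries in 1 fit and each library left out. Summing paralog rows, using library totals and leaving out libraries in the ratio of vehicle levels were chosen after seeing the data.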

Additional observations from a re-analysis of the deposited data

Results flagged for a closer look

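The TNF-α responses of 5 CC chemokines differed between the cell types by the interaction test (edgeR quasi-likelihood, adjusted over 18124 genes). The granulocyte minus promyelocyte log2 fold change was -2.39 for CCL1 and -1.25 for CCL2, and it was 2.42 for CCL3, 1.45 for CCL4 and 2.25 for CCL5. In each of the 12 fits that left out 1 library the 5 differences passed the test, with values from -2.45 to -2.30 for CCL1, -1.30 to -1.21 for CCL2, 2.19 to 2.64 for CCL3, 1.24 to 1.72 for CCL4 and 2.15 to 2.33 for CCL5. The 2 cell types were separate experiments, and cell type cannot be told apart from experiment in these differences.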

How the results depend on the processing

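The number of members called stayed at 6 or 7 in promyelocytes, 7 or 8 in granulocytes and 5 or 6 for the difference between responses under every alternative run, and no called member lost its call or its direction. Of 358 alternative values of member log2 fold changes, 343 kept direction and side of the threshold, 8 (of CCL22 and CCL23) passed it where the reported value did not, and 7 changed sign, all in differences between responses that were near 0. The difference of CCL23 was -0.00895 with no expression filter and -0.0795 with library totals. Over the fits that left out 1 library it lay between -0.154 and 0.235, and that of CCL20 between -0.159 and 0.0380. The adjusted p of the CCL22 difference was 0.0256 with DESeq2 and 0.0404 with no expression filter. Receptors with different responses numbered 2 (CCR1 and CCRL2), and 1 under 11 alternatives. The cause of these changes was not tested.

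Replicate numbers did not pair the libraries: deviations of same-numbered libraries correlated at -0.297 to -0.00988. With the replicate block 6, 7 and 5 members were called, as without it.

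Another scaling shifts all genes of a comparison by about the same amount. With library totals the median log2 fold change of all genes in granulocytes was -0.13, and 2810 genes rose and 6236 fell, where 4135 and 4209 did with TMM. For the difference between responses, 2561 genes were higher and 1790 lower in granulocytes with TMM, 2128 and 2266 with DESeq2 size factors and 1570 and 3530 with library totals. Without promyelocyte vehicle replicate 2 or TNF-α replicate 2, 653 and 667 genes fell in promyelocytes, where 1081 did with all libraries. Low counts limit CCL7, CCL17 and, in promyelocytes, CCL22 and CCL23.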
